A study of Mus musculus with 10 samples.

Results

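IGKV1-131, IGKV1-132, IGKV1-133 and IGKV1-135 are 4 of the 114 V segments listed in a table of immunoglobulin kappa light chain (Igk) transcripts. They were taken by name, as every line of the table whose V call, with the allele number removed, was 1 of these 4 segments. All of them carry the family number 1 and lie at the far end of the locus, distant from the J segments. Together they held 6611 of 161780 counts and 896 distinct clonotypes, where a clonotype is 1 V segment, 1 J segment and the nucleotide sequence of their joint, the CDR3. The samples were small pre-B cells, purified by FACS from the bone marrow of C57Bl6 mice aged 6 to 12 weeks. There were 5 samples of the genotype WT and 5 of the genotype rsCBE. The series' text puts a delta before rsCBE and the sample labels do not spell the name out. A further mutant that it names was not analysed here. The labels do not say whether replicates came from separate animals, so a p-value below measures only the spread between these samples. In the table, replicates 1 and 2 of each genotype were given as 1 library each, and replicates 3, 4 and 5 as 2 parts that were added here. The share of many V segments differed between these sets, so most of the differences tested are also given within each set.

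Small pre-B cells make the light chain by joining 1 V segment to 1 J segment, a reaction of the RAG recombinase. A V segment in the same orientation as the J segments joins by deleting the DNA between them, and one in the opposite orientation joins by inverting it. A joint need not keep the reading frame, since letters are trimmed from both ends before they are sealed. A kappa allele can rearrange again, with a V segment farther upstream and a J segment farther downstream than those of the first joint. J1 lies nearest to the V segments and J5 farthest from them, and J3 does not form a functional light chain.

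All 4 segments are annotated as immunoglobulin V genes of 2 exons in GENCODE M21, on chromosome 6 of build GRCm38. IGKV1-135 spans 67609713 to 67610508 on the plus strand, with its second exon, which codes for the V region proper, from 67610196 to 67610508. IGKV1-133 spans 67724902 to 67725661 and IGKV1-132 spans 67759700 to 67760413, both on the plus strand, as are the J segments. IGKV1-131 spans 67766036 to 67766772 on the minus strand. IGKV1-131 therefore joins by inversion, and IGKV1-132, IGKV1-133 and IGKV1-135 join by deletion. Their distances to J1 are 2955.8 kb for IGKV1-131, 2962.1 kb for IGKV1-132, 2996.9 kb for IGKV1-133 and 3112.1 kb for IGKV1-135. IGKV1-131 and IGKV1-132 lie 5.6 kb apart, and the gaps to IGKV1-133 and from there to IGKV1-135 are 34.0 kb and 114.4 kb. Of the V segments in the table, 1 lies farther from J1 than IGKV1-135, namely IGKV2-137.

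The germline sequences show how nearly alike the 4 segments are at the end that enters the joint. Over the 362 coding letters of the annotated transcripts, IGKV1-133 and IGKV1-135 differed at 12 positions (96.69% identity) and IGKV1-131 and IGKV1-132 at 17 (95.3%). IGKV1-132 and IGKV1-135 were the most distant pair, with 30 differences (91.71%). The last 23 letters of each V segment, which follow the conserved cysteine codon and form the V part of the CDR3, are printed below from the GENCODE M21 transcripts. Capitals mark letters that differ from IGKV1-135, and positions are counted from 1 at the first letter shown.
IGKV1-135: tggcaaggtacacattttcctca
IGKV1-133: GTgcaaggtacacattttcctca
IGKV1-132: tTgcaaggtacaTattAtcctca
IGKV1-131: CTgcaaggtacacattttcctcT
Relative to IGKV1-135 the changes were T1G and G2T in IGKV1-133, G2T, C13T and T17A in IGKV1-132, and T1C, G2T and A23T in IGKV1-131. The first 12 letters were used as a check on the V call, though not an independent one, since both come from the same reads. Within these letters the 4 segments differ only at positions 1 and 2. They began the CDR3 in 94.2% of the counts of IGKV1-135 (5251 of 5574), 94.7% of IGKV1-133 (462 of 488) and 94.6% of IGKV1-132 (494 of 522). The median over the 87 V segments with 200 or more counts was 94.3%, with a range of 88.6 to 97.3%.

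IGKV1-131 did not behave like the rest in this check. It held 27 counts, in 27 clonotypes of 1 count each, and 0 of 27 began with its own 12 germline letters, which allows a share of up to 11.1%. Over its first 18 letters a clonotype differed from the IGKV1-131 germline at 1 to 8 positions, with a median of 3. Of the 27 clonotypes, 6 were closer to IGKV1-131 than to any other of the 4 germline sequences, 12 were tied and 9 were closer to IGKV1-132, IGKV1-133 or IGKV1-135. An example in WT replicate 1, joined to J2 and assigned to IGKV1-131, has the letters printed next, and its first 18 letters match the IGKV1-135 germline with 0 differences.
IGKV1-131 with J2: tggcaaggtacacattttccgtacacg
Another, also joined to J2 in WT replicate 1, matches the start of the IGKV1-133 germline with 0 differences.
IGKV1-131 with J2: gtgcaaggtacacattttcctgtacacg
In all, 3 of the 27 began with the 12 germline letters of another of the 4 segments, and 1 was also listed under another of them in the same sample with the same J and CDR3. The counts were 6 and 7 in WT replicates 1 and 2, 6 and 6 in rsCBE replicates 1 and 2, and 2 in rsCBE replicate 3. The other 5 samples, all from replicates 3 to 5, had 0 counts, which allows a share of up to 0.0965% in the shallowest, WT replicate 4, and up to 0.0211% in the deepest of them, rsCBE replicate 4. How many of the 27 counts come from a rearranged IGKV1-131 cannot be told from these data. The segment was too sparse for any test.

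The common joints of IGKV1-135 show what the counts consist of. The 3 with the largest summed share used J1 and were in-frame, and differed only in where the V and J ends met. Capitals mark the letters after the germline V match.
IGKV1-135 with J1, 595 counts: tggcaaggtacacattttcctcGGACG
IGKV1-135 with J1, 481 counts: tggcaaggtacacattttcctcaGACG
IGKV1-135 with J1, 463 counts: tggcaaggtacacattttccGTGGACG
Each of the 3 was found in 10 of 10 samples, and together they made up 27.6% of the counts of IGKV1-135. The first held 5.6% of the IGKV1-135 counts in WT replicate 4, the lowest, and 12.7% in rsCBE replicate 3, the highest. The third keeps 20 germline V letters followed by the whole germline start of J1, gtggacg. IGKV1-132 had no clonotype in all samples. Its 3 leading joints shared the same V end, trimmed by 3 letters, and were followed by the untrimmed or nearly untrimmed starts of J5, J2 and J4.
IGKV1-132 with J5, 60 counts: ttgcaaggtacatattatccGCTCACG
IGKV1-132 with J2, 47 counts: ttgcaaggtacatattatccGTACACG
IGKV1-132 with J4, 34 counts: ttgcaaggtacatattatccATTCACG
Each of these was found in 7 of 10 samples. In IGKV1-133 the leading joints by summed share were a J1 joint that was not in-frame, a J2 joint with the same pattern of trimming, and a J5 joint seen in 1 sample.
IGKV1-133 with J1, 30 counts: gtgcaaggtacacattttcctcaTGGACG
IGKV1-133 with J2, 51 counts: gtgcaaggtacacattttccGTACACG
IGKV1-133 with J5, 8 counts: gtgcaaggtacacattttcctcaTGCG
The J2 joint was the only clonotype of IGKV1-133 found in 10 of 10 samples, with 2 to 10 counts in each. All 8 counts of the J5 joint came from WT replicate 4, where IGKV1-133 had 36 counts in all. A sum of shares gives this shallow sample the same weight as the others. Another J5 joint, with 30 counts in 8 samples, and another J1 joint, with 21 counts in 8 samples, had lower summed shares.

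IGKV1-135 was by far the most used of the 4 segments, and its place in the whole repertoire depended on the replicate set. Averaged over the 10 samples, IGKV1-135 made up 4.23% of all Igk counts (rank 3 of 114), IGKV1-133 0.407% (rank 64), IGKV1-132 0.286% (rank 72) and IGKV1-131 0.0121% (rank 106). By summed counts IGKV1-135 had rank 4. In replicates 1 and 2 it had rank 29 of 114, and in replicates 3 to 5 it had rank 2. IGKV1-133 had ranks 84 and 55 and IGKV1-132 ranks 60 and 79 in the same sets. Of the counts of the 4 segments, 84.3% belonged to IGKV1-135. Some of its joints were found in every sample. In IGKV1-135, 10 of 641 distinct clonotypes were present in all 10 samples and held 51.8% of its counts. Over all V segments, 188 of 23998 were, with 32.1% of the counts. Presence in all samples depends on how many counts a segment has, and no comparison with segments of like counts was made. At the other end, 77.8% of its distinct clonotypes were seen in 1 sample only, and 74.5% were over all V segments.

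The share of IGKV1-135 separated the 10 samples by replicate set and not by genotype. In WT it was 1.35 and 1.13% of all counts in replicates 1 and 2, and 7.14, 5.73 and 6.16% in replicates 3, 4 and 5. In rsCBE it was 1.54 and 1.36% in replicates 1 and 2, and 5.80, 5.58 and 6.48% in replicates 3, 4 and 5. All 4 samples of the first set lay below all 6 of the second. In replicates 1 and 2 both rsCBE samples were slightly above both WT samples, and in replicates 3 to 5 the genotypes overlapped. The closest samples in replicates 1 and 2 were WT replicate 1 (1.35%, 95% Wilson interval 1.21 to 1.51%) and rsCBE replicate 2 (1.36%, 1.22 to 1.52%). An order of 2 against 2 samples cannot give an exact permutation p below 0.333. For IGKV1-133 the WT shares were 0.0966 and 0.103% in replicates 1 and 2, and 0.528, 1.16 and 0.284% in replicates 3 to 5. The rsCBE shares of IGKV1-133 were 0.149 and 0.172%, and 0.597, 0.372 and 0.609%. The same 4 samples were again below the other 6. In replicates 1 and 2 the rsCBE samples were again above the WT samples, and in replicates 3 to 5 the genotypes overlapped. How many of all V segments have such an order of 2 against 2 samples was not counted. IGKV1-133 and IGKV1-135, the pair with the nearest germline sequences, thus had the same order of replicate sets.

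**Figure D1:**
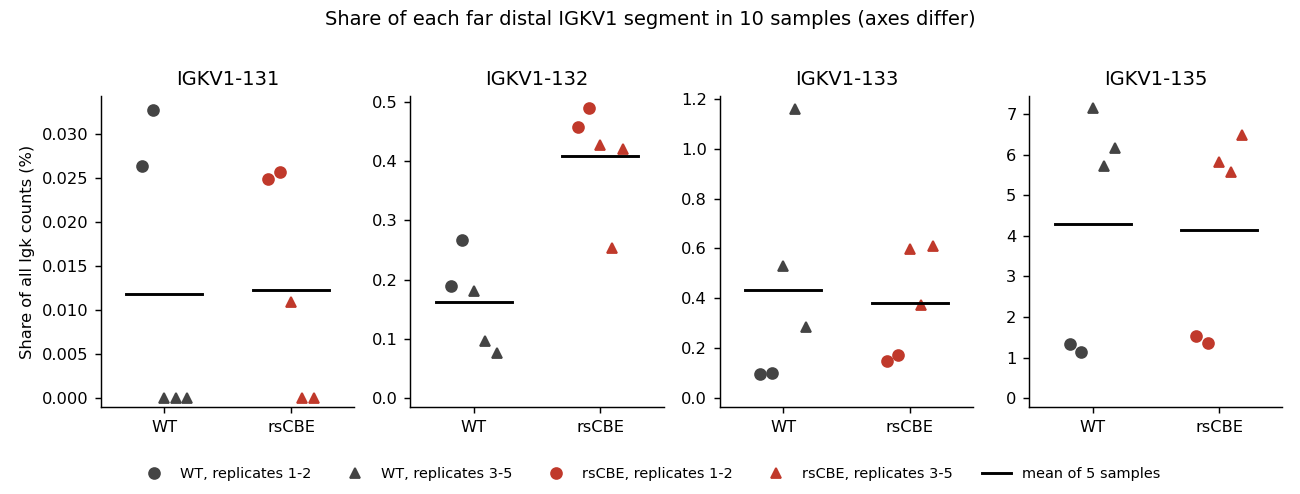
Share of all Igk counts (%) of each of the 4 segments in every sample, on an axis of its own for each segment, with circles for replicates 1 and 2, triangles for replicates 3 to 5 and a line at the mean of 5 samples. IGKV1-135 and IGKV1-133 are low in replicates 1 and 2 of both genotypes, and IGKV1-132 has its higher values in rsCBE.

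IGKV1-132, which lies between IGKV1-133 and IGKV1-131, had another pattern. Its WT shares were 0.189, 0.266, 0.181, 0.0965 and 0.0764% in replicates 1 to 5, from 43, 57, 25, 3 and 7 counts. Its rsCBE shares were 0.457, 0.489, 0.427, 0.253 and 0.420%, from 110, 114, 78, 36 and 49 counts. The rsCBE samples were above the WT samples, except that WT replicate 2 (0.266%) was just above rsCBE replicate 4 (0.253%). The ratio of IGKV1-132 to IGKV1-133 counts was 1.95 to 3.06 in replicates 1 and 2, and 0.0833 to 0.716 in replicates 3 to 5. Which of these 2 minor segments was the more frequent therefore changed with the replicate set.

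Replicates 3 to 5 were compared with replicates 1 and 2 by edgeR's quasi-likelihood test over all V segments, with genotype in the model and p-values adjusted by the Benjamini-Hochberg method. This is a comparison of 2 sets of libraries that differ in how they were deposited and in depth, and what else differs between them is not stated. A sample had 21392 to 24083 counts in replicates 1 and 2 and 3109 to 18263 in replicates 3 to 5. It had 6079 to 6888 distinct clonotypes in the first set and 821 to 3755 in the second. Of 98 V segments tested, 56 were called at an adjusted p under 0.05 (57.1%), 30 of them higher (30.6%) and 26 lower (26.5%) in replicates 3 to 5. Both of the more closely related segments were among those that were higher. IGKV1-135 averaged 1.34 ± 0.166% (SD, n = 4) in replicates 1 and 2 and 6.15 ± 0.587% (n = 6) in replicates 3 to 5, a log2 fold change of 2.19 (SE 0.11, edgeR adjusted p = 4.04e-12) and the second highest of the 98. IGKV1-133 averaged 0.130 ± 0.0364% and 0.591 ± 0.306%, a log2 fold change of 2.10 (SE 0.35, edgeR adjusted p = 6.56e-05) and the fourth highest. With each clonotype counted once in a sample, these log2 fold changes were 1.49 and 1.24. IGKV1-132 averaged 0.350 ± 0.146% and 0.242 ± 0.154%, and its log2 fold change of -0.55 (SE 0.28, edgeR adjusted p = 0.0947) was not called, though with each clonotype counted once it was -0.60 (adjusted p = 0.0218). The V segments that flank the group had lower means in replicates 3 to 5. IGKV2-137, beyond IGKV1-135, averaged 3.77 ± 0.959% and 2.26 ± 0.452%, and IGKV14-130, on the J side of IGKV1-131, averaged 0.285 ± 0.0675% and 0.177 ± 0.0910%.

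The comparison of genotypes asks whether V segments were used at another level in rsCBE than in WT. None of the 98 V segments tested was called by edgeR (0%), 7 were below 0.05 before adjustment, and DESeq2 called 0 of 114. IGKV1-132 had the lowest p of the 98. WT samples averaged 0.162 ± 0.0768% and rsCBE samples 0.409 ± 0.0916% (SD over 5 samples each). The log2 fold change of 1.27 had a standard error of 0.37 (edgeR adjusted p = 0.486). With the replicate set as a term in the model, the log2 fold change was 1.28 (SE 0.28, edgeR adjusted p = 0.0229), and IGKV1-132 was 1 of 2 V segments called of 98 (2.04%). With the replicate number as a block it was 1.35 (edgeR adjusted p = 0.0350), and IGKV1-132 was the only V segment called (1.02%). Within replicates 1 and 2 the log2 fold change was 1.06, and within replicates 3 to 5 it was 1.54 (edgeR adjusted p = 0.0730 and 0.273), with 0 V segments called in either. Counting each clonotype once gave 0.78 (edgeR adjusted p = 0.641). The number of distinct IGKV1-132 clonotypes was 30, 29, 9, 1 and 3 in the WT samples and 49, 51, 23, 12 and 21 in the rsCBE samples.

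IGKV1-135 and IGKV1-133 showed no comparable difference of mean share between genotypes. IGKV1-135 averaged 4.30 ± 2.84% in WT and 4.15 ± 2.49% in rsCBE, with a log2 fold change of -0.05 (SE 0.59, edgeR adjusted p = 0.992). With the replicate set in the model, the standard error of IGKV1-135 fell to 0.10 around a log2 fold change of 0.03 (edgeR adjusted p = 0.934). IGKV1-133 averaged 0.434 ± 0.441% in WT and 0.380 ± 0.221% in rsCBE, with a log2 fold change of -0.08 (SE 0.68, edgeR adjusted p = 0.992). With the replicate set in the model it was 0.13 (SE 0.32, edgeR adjusted p = 0.934). In replicates 1 and 2 alone, with 2 samples of each genotype, the log2 fold changes were 0.22 for IGKV1-135 and 0.68 for IGKV1-133 (edgeR adjusted p = 0.529 and 0.353). These tests do not show that the shares were equal.

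**Figure D2:**
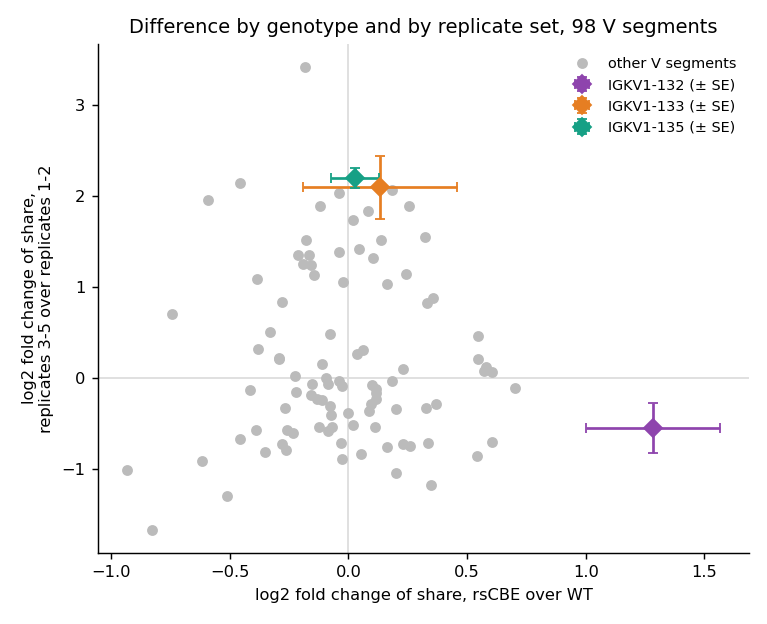
Log2 fold change of the share by genotype (rsCBE over WT, horizontal) against the log2 fold change by replicate set (replicates 3 to 5 over replicates 1 and 2, vertical) for 98 V segments, both from the edgeR model with genotype and replicate set, with standard errors for 3 segments. IGKV1-135 and IGKV1-133 lie near 0 on the horizontal axis and above 2 on the vertical axis, and IGKV1-132 lies at 1.28 and -0.55.

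Among the joints of IGKV1-132 that could be tested, those to J5 differed most between genotypes. IGKV1-132 with J5 had 14, 17, 5, 0 and 2 counts in the WT samples and 43, 52, 46, 22 and 23 counts in the rsCBE samples. Every rsCBE sample had more such counts than any WT sample, at unequal depths. As a share of all Igk counts, the pair averaged 0.0398 ± 0.0315% in WT against 0.201 ± 0.0379% in the rsCBE samples. The log2 fold change was 2.09 (SE 0.56, edgeR adjusted p = 0.278), the lowest p among 270 V-J pairs, of which 0 were called (0%), with 25 below 0.05 before adjustment. When the replicate set was modelled, the pair was 1 of 7 called of 270 (2.59%), with a log2 fold change of 2.16 (SE 0.47, edgeR adjusted p = 0.0194), with 5 of the 7 higher (1.85%) and 2 lower in rsCBE (0.741%). DESeq2 gave 2.02 (adjusted p = 0.00583) and called 2 of 470 pairs (0.426%), and the replicate block gave 2.22 (edgeR adjusted p = 0.0510). It was 1.51 in replicates 1 and 2 alone (edgeR adjusted p = 0.0315), where 35 of 285 pairs were called (12.3%), and 2.98 in replicates 3 to 5 alone (edgeR adjusted p = 0.588). The other pairs of IGKV1-132 with enough counts were J1, with a log2 fold change of 0.92 (edgeR adjusted p = 0.635), and J2, with 0.19 (adjusted p = 0.963). IGKV1-132 with J4 was not tested, and its counts were also higher in rsCBE. They were 7, 9, 0, 0 and 0 in the WT samples and 15, 20, 3, 4 and 6 in the rsCBE samples. Pooled, J4 held 16 of 135 IGKV1-132 counts in WT and 48 of 387 in rsCBE. Over the WT samples together, 38 of 135 IGKV1-132 counts were joined to J5 and 48 to J2. Over the rsCBE samples together, 186 of 387 were joined to J5 and 80 to J2.

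No pair of the other 2 segments was called. For IGKV1-135 the log2 fold changes were -0.13 with J1, -0.42 with J2, 0.91 with J4 and 0.45 with J5 (edgeR adjusted p = 0.966, 0.837, 0.697 and 0.900). With the replicate set in the model they were -0.06, -0.35, 0.82 and 0.58 (edgeR adjusted p = 0.842, 0.424, 0.319 and 0.234). For IGKV1-133 they were -0.70 with J1, 0.50 with J2 and 0.65 with J5 (edgeR adjusted p = 0.805, 0.883 and 0.883), and with the replicate set in the model -0.61, 0.52 and 0.75 (edgeR adjusted p = 0.464, 0.621 and 0.561). With 1 sample left out, the log2 fold change of IGKV1-135 with J5 ran from 0.16 to 0.92.

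Within each segment, J use was then taken as a percentage of that segment's own counts, which removes how often the segment itself is used. Over the 87 V segments with enough counts, the J5 share was higher in rsCBE than in WT for 79 and lower for 8, with a median difference of 10.2 percentage points. An exact permutation test of 5 against 5 samples cannot go below p = 0.00794, and 0 of 87 passed after adjustment (0%), with 30 at an unadjusted p under 0.05. The J5 share of IGKV1-132 was 32.6, 29.8, 20, 0 and 28.6% in WT and 39.1, 45.6, 59.0, 61.1 and 46.9% in rsCBE. All rsCBE samples were above all WT samples. The means were 22.2 ± 13.3% and 50.3 ± 9.37%, a difference of 28.2 percentage points, the fifth largest of 87 (two-sided exact permutation p = 0.00794, adjusted p = 0.0575). That difference was 11.2 points within replicates 1 and 2 and 39.5 within replicates 3 to 5. The 0% in WT replicate 4 rests on 3 counts of IGKV1-132. Without WT replicate 4 the difference was 22.6 points (exact permutation adjusted p = 0.0466), and 31 of 91 V segments were called (34.1%). Without WT replicate 5 it was 29.8 points (exact permutation adjusted p = 0.0437), and 16 of 88 were called (18.2%). With V segments limited to a mean of 50 or more counts a sample, the same 28.2 points passed (exact permutation adjusted p = 0.0498), as 1 of 11 called of 69 (15.9%).

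IGKV1-135 had a smaller J5 difference and a smaller spread. Its J5 share was 9.45, 7.02, 13.4, 8.43 and 12.2% in WT and 14.9, 14.5, 19.0, 13.6 and 15.0% in rsCBE. Again no rsCBE sample fell within the WT range. Groups that did not overlap were found for the J5 share of 12 of the 87 V segments (13.8%), every one with rsCBE above WT. The means of IGKV1-135 were 10.1 ± 2.64% and 15.4 ± 2.07%, a difference of 5.28 points, in place 64 of 87 (two-sided exact permutation p = 0.00794, adjusted p = 0.0575). Within replicates 1 and 2 it was 6.45 points and within replicates 3 to 5 it was 4.5. Leaving out WT replicate 4 gave 4.86 points and leaving out WT replicate 5 gave 5.81 (exact permutation adjusted p = 0.0401 and 0.0437), and IGKV1-135 was another of the 11 called at a mean of 50 or more counts (exact permutation adjusted p = 0.0498). In IGKV1-133 the J5 share was 22.7, 31.8, 8.22, 36.1 and 7.69% in WT and 38.9, 37.5, 31.2, 26.4 and 36.6% in rsCBE, so that WT replicates 2 and 4 lay inside the rsCBE range. Its difference of 12.8 points had an exact permutation p of 0.0873 (adjusted p = 0.200), and was 10.9 and 14.1 points within the sets.

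The J1 share was lower in rsCBE for 73 of 87 V segments, with a median difference of -4.15 points, and 0 were called (0%), with 16 at an unadjusted p under 0.05. IGKV1-133 had 40.9, 40.9, 50.7, 58.3 and 57.7% J1 in WT and 30.6, 12.5, 37.6, 49.1 and 29.6% in rsCBE. Its difference of -17.8 points was in place 85 of 87 and did not pass after adjustment (exact permutation p = 0.0317, adjusted p = 0.212). Within the replicate sets it was -19.4 and -16.8 points. IGKV1-135 had a J1 share of 61.8 ± 3.94% in WT and 58.5 ± 3.17% in rsCBE, a difference of -3.28 points (exact permutation adjusted p = 0.512). It ran from -4.51 to -1.84 points with 1 sample left out. The means were 59.8% in WT and 56.3% in rsCBE in replicates 1 and 2, and 63.2% and 60.1% in replicates 3 to 5. For IGKV1-132 the J1 shares were 22.7% and 21.4% (exact permutation adjusted p = 0.968), a difference of -4.75 points within replicates 1 and 2 and 1.08 within replicates 3 to 5.

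**Figure D3:**
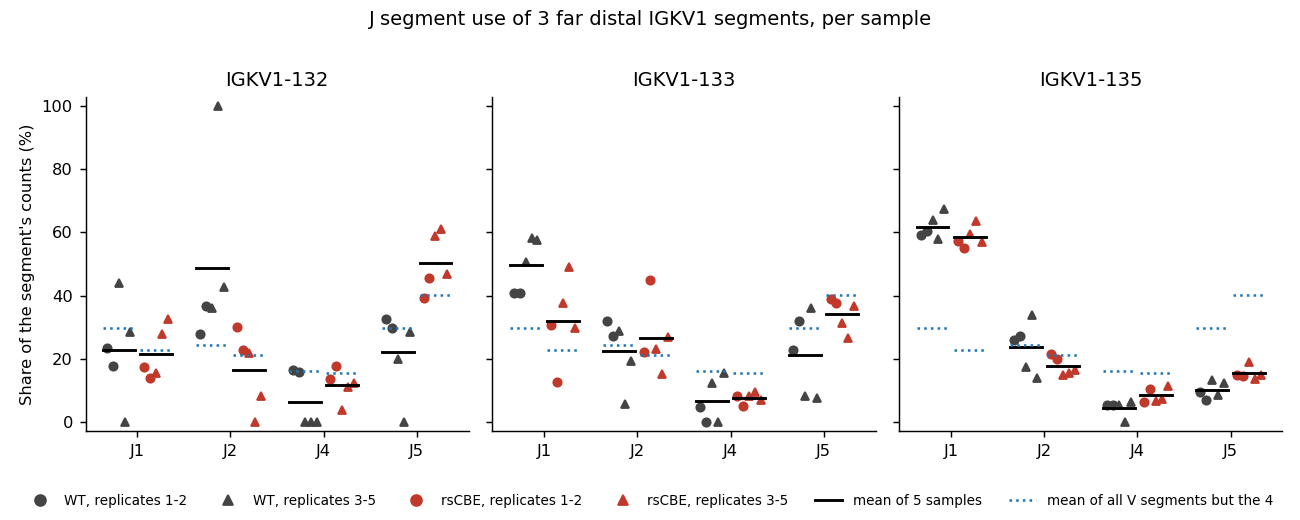
Share of each segment's own counts (%) joined to J1, J2, J4 and J5 in every sample, for IGKV1-132, IGKV1-133 and IGKV1-135, with circles for replicates 1 and 2, triangles for replicates 3 to 5, black lines at the mean of 5 samples and dotted lines at the mean of all V segments but the 4. IGKV1-135 has J1 shares between 55.2 and 67.6% in all samples, far above the dotted lines, and in IGKV1-132 the rsCBE samples lie above the WT samples for J5.

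IGKV1-135 was among the V segments richest in J1 and poorest in J5 in both genotypes. Its J1 share was 59.3, 60.3, 64.0, 57.9 and 67.6% in WT and 57.3, 55.2, 59.6, 63.5 and 57.1% in rsCBE. The mean of 60.2 ± 3.79% (n = 10) was the highest of 87 V segments, followed by IGKV3-2 with 58.9 ± 7.89%, IGKV3-1 with 58.2 ± 16.1% and IGKV4-80 with 56.9 ± 8.19%, which do not differ from it beyond their spread. In rsCBE alone it was also the highest, whereas in WT alone it was in place 4, below IGKV3-1 (71.2%), IGKV12-98 (64.2%) and IGKV3-2 (64.0%). All other V segments of the same samples together had 26.4% J1, a difference of 33.8 points in the same direction in 10 of 10 samples. A two-sided exact sign-flip permutation test over the samples, added after the data had been seen, gave p = 0.00195, the smallest that 10 samples allow (adjusted p = 0.00395). In that test 61 of 87 V segments were called (70.1%), 24 of them higher (27.6%) and 37 lower (42.5%), so a departure from the mean of the rest was common. The excess of J1 was 32.2 points in replicates 1 and 2 and 34.9 in replicates 3 to 5, and 32.0 points in WT and 35.6 in rsCBE.

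J5 was low in the same joints. IGKV1-135 had 12.7 ± 3.57% J5 against 34.9% in all other V segments, below them in 10 of 10 samples (difference of -22.1 points, exact permutation p = 0.00195, adjusted p = 0.00586). The difference was -21.0 points in replicates 1 and 2 and -22.9 in replicates 3 to 5. It was in place 86 of 87, just above IGKV10-96 with 12.7 ± 8.12%, and in place 84 in WT alone and 86 in rsCBE alone. Here 47 of 87 V segments were called (54%), 22 of them lower (25.3%). The ratio of J1 to J5 counts of IGKV1-135 was 4.79 to 8.59 in the WT samples and 3.14 to 4.67 in the rsCBE samples. In all other V segments it ran from 0.697 to 1.26 among WT samples and from 0.519 to 0.614 among rsCBE samples. The ratio was thus lower in rsCBE in both, and that of IGKV1-135 exceeded the rest in every sample. J3 was found in 0 of the 6611 counts of the 4 segments, which allows a share of up to 0.0454%, and in 62 of the 155169 counts of the other V segments.

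**Figure D4:**
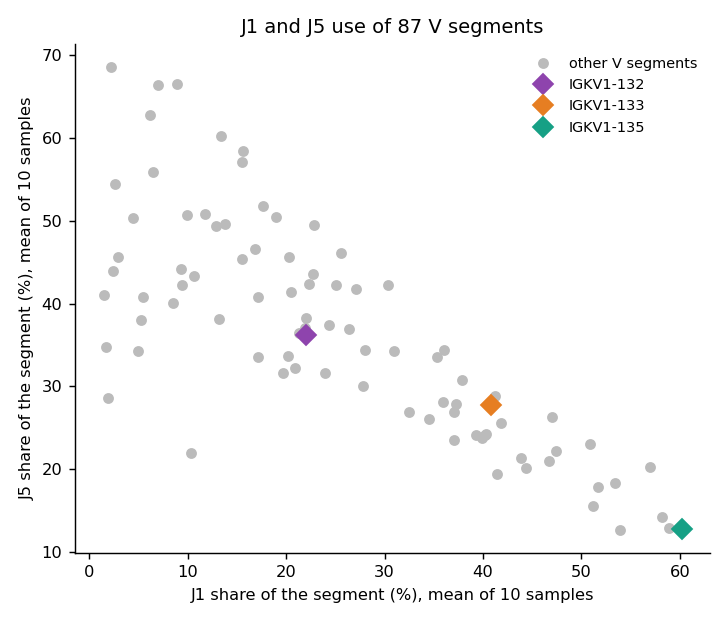
Mean J1 share (%) against mean J5 share (%) over 10 samples for 87 V segments, each point 1 segment. IGKV1-135 lies at the end with the highest J1 share (60.2%) and a J5 share of 12.7%, IGKV1-133 has 40.8% and 27.7%, and IGKV1-132 lies in the middle with 22.0% and 36.3%.

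IGKV1-133 was also rich in J1, and IGKV1-132 was not. IGKV1-133 had 40.8 ± 14.1% J1, in place 18 of 87 and 13.0 points above the rest in 9 of 10 samples (exact permutation adjusted p = 0.0131). The excess was 4.97 points in replicates 1 and 2 and 18.4 in replicates 3 to 5. Its J5 share of 27.7 ± 11.6% was 6.22 points below the rest (exact permutation adjusted p = 0.110), 7.57 points below without WT replicate 2 (adjusted p = 0.0453), and 8.83 points below without clonotypes of 1 count (adjusted p = 0.0195). The deficit came from 1 replicate set, with a difference of 0.572 points in replicates 1 and 2 and -10.7 in replicates 3 to 5. IGKV1-132 had 22.0 ± 12.1% J1 and 36.3 ± 18.4% J5, 5.78 points below and 2.38 points above the rest (exact permutation adjusted p = 0.155 and 0.752). Its J1 difference was -8.25 points in replicates 1 and 2 and -4.13 in replicates 3 to 5, and -8.57 in WT and -2.98 in rsCBE. With 1 sample left out it ran from -7.56 to -3.34. Its J5 difference from the rest had opposite signs in the genotypes, -6.46 points in WT and 11.2 in rsCBE, and ran from 0.0384 (without rsCBE replicate 4) to 6.52 (without WT replicate 4) with 1 sample left out. On the chromosome, IGKV2-137, the outer neighbour of IGKV1-135, had 1.94% J1 (place 85 of 87) and 28.6% J5, and IGKV14-130, next to IGKV1-131, had 22.8% and 43.6%. The other 5 IGKV1 segments with enough counts, named after their values were seen, ranged widely. Their J1 shares were 46.7% in IGKV1-117, 41.8% in IGKV1-88, 37.0% in IGKV1-110, 27.1% in IGKV1-122 and 10.4% in IGKV1-99.

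A joint was counted as in-frame where the CDR3 length was a multiple of 3 and held no stop. IGKV1-135 was in-frame in 62.9, 66.1, 62.7, 67.4 and 59.8% of its counts in WT and 64.1, 58.4, 54.5, 56.9 and 57.2% in rsCBE. The groups overlapped through rsCBE replicate 1. The difference of -5.56 points was the median of the 87 V segments, and 0 of 87 were called (0%), with 14 at an unadjusted p under 0.05 (exact permutation p = 0.0317, adjusted p = 0.230). Within replicates 1 and 2 it was -3.28 points and within replicates 3 to 5 it was -7.07. Over the 10 samples, IGKV1-135 was in-frame in 61.0 ± 4.27% against 68.2% in all other V segments, below them in 9 of 10 samples (exact permutation adjusted p = 0.0170), with a difference of -8.03 points in replicates 1 and 2 and -6.73 in replicates 3 to 5. In this comparison 29 of 87 were called (33.3%), 15 of them lower (17.2%). IGKV1-132 was in-frame in 51.4 ± 22.1%, 16.6 points below the rest (exact permutation adjusted p = 0.0296). That difference was -3.22 points in replicates 1 and 2 and -25.5 in replicates 3 to 5, where the segment had 3 to 78 counts, and it did not pass with each clonotype counted once (-10.5 points, adjusted p = 0.169), without clonotypes of 1 count (-11.2 points, adjusted p = 0.349), or without WT replicate 1, 2, 3 or 5 or rsCBE replicate 3 or 4. IGKV1-133 was 3.51 points below the rest (exact permutation adjusted p = 0.667), but the sign turned between sets, with 2.87 points in replicates 1 and 2 and -7.76 in replicates 3 to 5, and between genotypes, with -8.76 in WT and 1.74 in rsCBE. The difference was -0.144 points without WT replicate 3 and -6.03 without rsCBE replicate 5. Genotype means were 45.2 ± 30.0% in WT and 57.5 ± 10.3% in rsCBE for IGKV1-132, and 61.9 ± 18.7% and 67.0 ± 12.8% for IGKV1-133 (exact permutation adjusted p = 0.690 and 0.882). The low WT mean of IGKV1-132 rests on 0% of 3 counts in WT replicate 4 and 28.6% of 7 counts in WT replicate 5. Its genotype difference was 1.58 points within replicates 1 and 2 and 19.5 within replicates 3 to 5, and it was 1.01 without WT replicate 4 and 18.1 without WT replicate 2. For IGKV1-133 it was -7.27 and 13.3 points within the sets.

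The high J1 share of IGKV1-135 was present in both reading frame classes. Among in-frame counts J1 made up 57.9 ± 5.0%, and among the others 64.1 ± 5.86%. It was higher in the counts that were not in-frame in 8 of 10 samples. J2 went the other way, with 24.2 ± 6.70% of the in-frame counts and 15.2 ± 6.52% of the others. Joints of IGKV1-135 to J2 were in-frame in 72.3 ± 7.37% of counts, and those to J1 in 58.6 ± 4.07% and to J5 in 58.9 ± 11.2%. These values are descriptions without a test.

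CDR3 length differed little between genotype means. It averaged 26.82 and 26.81 nucleotides in WT and rsCBE for IGKV1-135, 26.82 and 26.82 for IGKV1-133, and 26.27 and 26.24 for IGKV1-132, and 0 of 87 V segments were called (0%), with 9 at an unadjusted p under 0.05. Against the rest, IGKV1-135 was longer by 0.208 nucleotides (26.81 ± 0.103 against 26.61, exact permutation adjusted p = 0.00850), the median over all 87, of which 45 were called (51.7%) and 33 longer (37.9%). The excess was 0.243 in replicates 1 and 2 and 0.184 in replicates 3 to 5. With each clonotype counted once that difference was -0.0570 (adjusted p = 0.509), so it depends on how often the frequent joints were counted. IGKV1-132 was shorter than the rest by 0.361 nucleotides and IGKV1-133 longer by 0.204, and neither passed (exact permutation adjusted p = 0.156 and 0.216). Without WT replicate 5 the difference of IGKV1-132 was -0.524 (exact permutation adjusted p = 0.0143).

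The joints themselves were read against the germline ends, over counts that begin with the germline start. The V letters lost were counted from the first letter that differs from the germline V end. A J letter that by chance equals the trimmed V letter lowers this number. A read error inside V raises it, and can also make letters count as added. The full V end was kept in 31.6 ± 4.21% of the counts of IGKV1-135, in 35.8 ± 12.9% of IGKV1-133 and in 20.3 ± 13.4% of IGKV1-132, against a median of 16.6% over 85 V segments (range 2.76 to 69.7%). On average 1.96 ± 0.0984 V letters were lost in IGKV1-135, 2.01 ± 0.562 in IGKV1-133 and 2.73 ± 0.598 in IGKV1-132, and the median over V segments was 2.58. In each segment the loss of 3 letters was a separate peak, with 30.9% of the counts of IGKV1-135, 30.3% of IGKV1-133 and 31.6% of IGKV1-132. The V end trimmed in this way is the one that the J2 joints of IGKV1-133 and IGKV1-132 printed above share. No letter beyond V and J was found in 87.8, 88.0 and 92.5% of the counts of the 3 segments, against a median of 86.5%. In IGKV1-135 the full V end was kept in 31.9 ± 4.50% of counts in WT and 31.2 ± 4.39% in rsCBE, and in 28.9 ± 1.53% in replicates 1 and 2 and 33.3 ± 4.59% in replicates 3 to 5. None of these junction values was tested.

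**Figure D5:**
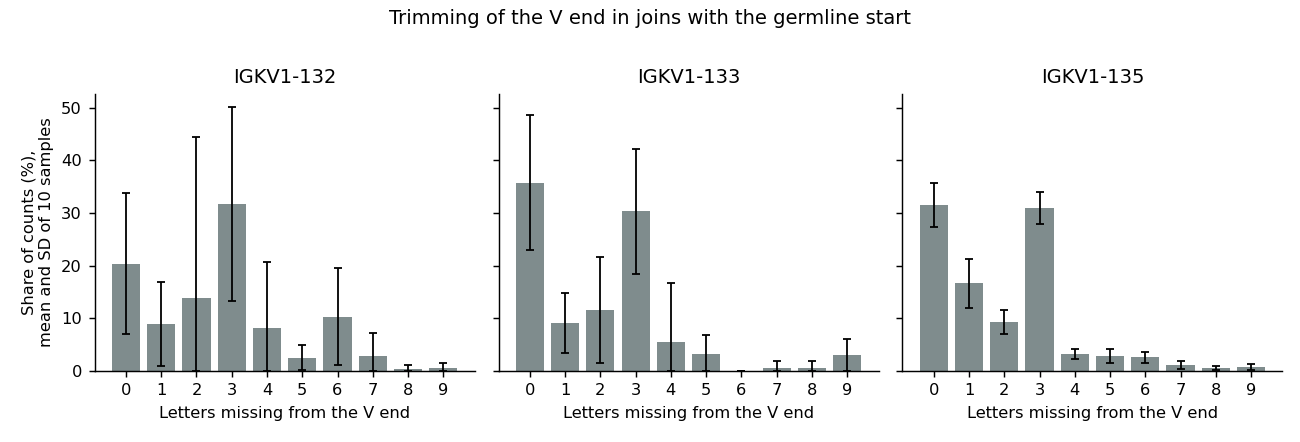
Share of counts (%) by the number of letters missing from the germline V end, for IGKV1-132, IGKV1-133 and IGKV1-135, as the mean and SD of 10 samples with error bars ended at 0. All 3 have a peak at 3 missing letters of 30.3 to 31.6%, and another at 0 missing letters, of 31.6% in IGKV1-135, 35.8% in IGKV1-133 and 20.3% in IGKV1-132. The 13.8% of IGKV1-132 at 2 missing letters includes WT replicate 4, where all 3 counts lacked 2.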

How the data were processed

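Igk transcripts of FACS-purified small pre-B cells were sequenced as paired-end amplicon reads of 151 bp, per the labels' protocols. The authors deposited 1 table of raw counts per V call, J call and CDR3 in each of 16 libraries, with no normalization. The build mm10, which is GRCm38, is named in the submitters' processing notes. The caller, its germline set, the read filters and what 1 count stands for are not given in the sources used here, so the Wilson intervals and limits for counts of 0 cover counting error only. Reads of near-identical V segments may have been assigned to 1 of them before deposition, and single segments are uncertain for that reason.

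Of 49079 lines, 49 duplicates were merged, alleles were merged, and parts a and b of a replicate were added. Total counts per sample ran from 3109 (WT replicate 4) to 24083 (rsCBE replicate 1). The members, lists and tests were chosen with earlier results of these data known.

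V segments and V-J pairs were tested with edgeR 4.0.16 in R 4.3.3 (quasi-likelihood F-test, library size the total count, factors of 1, filterByExpr), with DESeq2 1.42.0 as an alternative. The edgeR test gives no standard error. Those printed are the absolute log2 fold change divided by the square root of its F statistic. Shares within a segment, for segments with a mean of 20 or more counts a sample and at least 1 in each, were compared by exact permutation tests computed with numpy 2.4.6. P-values were adjusted over all V segments or pairs tested, and calls were made at 0.05. The tests were also run on simulated data with known differences, the outcome of which is not given here. Positions and germline sequences were read from GENCODE M21, to which 112 of 114 V names matched.

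The named segments were the 4 members, the 3 V segments most like each in log2 CPM (prior of 2 counts), the flanking V segments, and the 3 clonotypes with the largest summed share. Those of IGKV1-131 were single counts and are not printed. The IGKV1-131 joints shown are others, chosen after their values were seen because they match another germline. Replicate numbers were treated as pairs in an alternative, since same-numbered WT and rsCBE samples deviated together from their genotype means (r = 0.84, 0.831, 0.662, 0.202 and 0.453 for replicates 1 to 5). With the mean of each replicate set taken out, r was 0.165, 0.165, 0.162, -0.307 and -0.173. Other alternatives were TMM factors, no filter on low counts, each clonotype counted once, no clonotypes of 1 count, each replicate set alone, 1 part alone, a minimum mean of 50 counts, and leaving out each sample.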

Additional observations from a re-analysis of the deposited data

Results flagged for a closer look

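Of 32 groups of 5 samples examined for a sample far from the rest, 2 held one, and chance gives about 1 in 20 groups, or 1.6 here. The mean CDR3 length of IGKV1-135 in WT replicate 3 was 26.6059 nucleotides, below the other 4 WT samples, which lay between 26.843 and 26.8893. The J5 share of IGKV1-135 in rsCBE replicate 3 was 18.9623%, above the other 4 rsCBE samples, which lay between 13.602 and 14.9669%. Without rsCBE replicate 3 the J5 difference of IGKV1-135 between genotypes was 4.39 points.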

How the results depend on the processing

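Counts of calls moved with the model. For V segments by genotype, 0 calls became 1 with the replicate block and 2 with the replicate set as a term. For V-J pairs, 0 became 2 with DESeq2, 7 with the set term and 35 in replicates 1 and 2 alone. The 56 calls between replicate sets became 15 in WT alone. The 0 calls for J5 share became 11 at a mean of 50 or more counts and ranged from 0 to 31 with 1 sample left out (31 without WT replicate 4 and 16 without WT replicate 5). The block moved IGKV1-132 use to an adjusted p of 0.0350 and changed no other call of their use as V segments or in V-J pairs. For shares and CDR3 length between genotypes the block says nothing, since 5 pairs cannot give a p below 0.0625. Nor can either set alone (0.333 and 0.1).

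Signs turned for values that were not called, with the exception of the CDR3 length of IGKV1-135 against the rest, and the cause was not tested. IGKV1-133 use by genotype (log2 -0.08) was 0.19 with the replicate block, 0.13 with the set term, 0.68 in replicates 1 and 2 alone, 0.30 with each clonotype counted once, 0.61 with part b alone and -0.36 to 0.60 with 1 sample left out. IGKV1-135 use (-0.05) was 0.034 with the block, 0.028 with the set term, 0.22 in replicates 1 and 2 and -0.29 to 0.22 with 1 left out. IGKV1-135 with J1 was 0.14 in replicates 1 and 2 and -0.38 to 0.15 with 1 left out. CDR3 length of IGKV1-135 against the rest was -0.0570 with each clonotype counted once. CDR3 length by genotype was 0.194 (clonotypes once), 0.0881 (replicates 1 and 2) and -0.216 to 0.359 (1 left out) for IGKV1-132, -0.0141 (no clonotypes of 1 count), -0.0143 (replicates 3 to 5) and -0.132 to 0.298 for IGKV1-133, and 0.00133 (replicates 3 to 5) and -0.0620 to 0.0263 for IGKV1-135. The J1 share of IGKV1-132 was 1.08 points in replicates 3 to 5 and -6.92 to 4.08 with 1 left out. The in-frame share of IGKV1-133 was -7.27 points in replicates 1 and 2 and -1.50 to 10.1 with 1 left out.

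Depth limits the minor segments most: IGKV1-132 had 3 to 114 counts a sample and IGKV1-133 22 to 109.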

Other observations

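Over the 10 samples, the V segments whose level (log2 CPM) was most like that of IGKV1-135 were IGKV3-7 (Pearson r = 0.977), IGKV8-16 (0.975) and IGKV4-57 (0.965). For IGKV1-133 they were IGKV9-129 (0.987), IGKV8-18 (0.946) and IGKV8-34 (0.939). For IGKV1-132 they were IGKV11-125 (0.850), IGKV2-112 (0.840) and IGKV4-51 (0.755), and for the sparse IGKV1-131 IGKV4-50 (0.855), IGKV8-28 (0.848) and IGKV10-94 (0.816). These are descriptions over 10 points that fall into 2 replicate sets and share library and depth. With the mean of each set taken out, IGKV9-129 was still first for IGKV1-133 (0.939), whereas the highest value for IGKV1-135 was 0.650, with IGKV4-70, followed by IGKV4-75 (0.630) and IGKV4-77 (0.623). For IGKV1-132, IGKV4-51 was then first (0.919), followed by IGKV11-125 (0.864) and IGKV2-112 (0.816). IGKV1-133 and IGKV1-135 had r = 0.884 with each other, and 0.106 with the set means taken out.

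The 27 clonotypes assigned to IGKV1-131 were in-frame in 22 of 27 cases.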
